A study of Mus musculus with 6 samples.

Results

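Proteins that bring long-chain fatty acids into the liver cell and carry them inside it were followed as 10 genes chosen by name: the fatty acid translocase Cd36, the fatty acid transport proteins Slc27a1, Slc27a2, Slc27a4 and Slc27a5, the fatty acid binding proteins Fabp1, Fabp2, Fabp4 and Fabp5, and the acyl-CoA binding protein Dbi. Each gene was represented by its probe set, the group of short probes against 1 transcript, with the highest mean signal among those annotated with 1 gene symbol. They are 10 of 13989 genes that exceeded a signal of 221.4 on at least 1 array, out of 18194 genes with a probe set, and all 10 exceeded it on all 6 arrays.

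The liver takes up fatty acids released from adipose tissue and from dietary lipoproteins. Cd36 at the cell surface aids entry, and the transport proteins join fatty acids to coenzyme A, which keeps them in the cell. Binding proteins of the Fabp family then carry the insoluble fatty acids through the cytosol, and Dbi holds the acyl-CoA esters. Fabp1 is the abundant form of hepatocytes, Fabp2 is best known from the small intestine, Fabp4 from adipocytes and macrophages, and Fabp5 from skin, macrophages and endothelium. Several of these genes are known targets of the fatty acid sensing nuclear receptors PPAR alpha and PPAR gamma.

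Liver RNA came from male C57BL6/J mice that were 6 to 8 weeks old when the feeding began, and it was hybridised to Affymetrix Mouse Genome 430 2.0 arrays. Each of the 6 groups was a single array carrying RNA pooled from 3 to 4 livers. The groups were chow, the fast-food diet, and the fast-food diet with canertinib, each at 2 months and at 5 months in separate studies. The fast-food diet contained 21% fat, 34% sucrose and 0.2% cholesterol by weight, with glucose and fructose in the water. Canertinib irreversibly inhibits the receptor kinases of the epidermal growth factor receptor (EGFR) family. Over the 2 months it was given in the food, at about 80 mg/kg a day. The 5-month mice had it injected into the peritoneum at 80 mg/kg on 5 days a week for the last 5 weeks, and the fast-food group of that study received vehicle. No injection is named for the chow group. Diet and injection therefore cannot be told apart in the comparison with chow at 5 months, and route and duration of the drug differ between the studies.

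The hepatocyte marker Alb, serum albumin, had signals of 55464 to 92450 on the 6 arrays. The log2 ratio of 3′ to 5′ signal of beta-actin, a measure of RNA integrity, was 1.19 and 1.12 on the 2 canertinib arrays and 0.85 to 0.98 on the other 4, and its part in the drug results below was not tested. The same ratio for Gapdh was -0.20 and -0.14 on the canertinib arrays, within the range of -0.30 to -0.09 of the others. Arrays have no read depth, and having few of them is what limits precision here. Differences between 2 arrays are given on the log2 scale without a test. The 2 chow arrays, which differ by study but not by diet or drug, differed with a standard deviation of 0.40 log2 over all measured genes.

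The sequences upstream of Cd36, Fabp1 and Fabp2 are shown because these 3 members had signals at least 2-fold lower with canertinib than with the diet alone at 2 months. They are RefSeq windows on GRCm38.p6 from 250 bases before to 50 bases after the transcription start, written 5′ to 3′ on the gene's strand. Capitals mark a match, with at most 2 mismatches in its 12 defined letters and on either strand, to AGGTCANAGGTCA, the direct repeat that PPAR and its partner RXR bind.
Cd36 (chr5:17835847-17836146, minus strand): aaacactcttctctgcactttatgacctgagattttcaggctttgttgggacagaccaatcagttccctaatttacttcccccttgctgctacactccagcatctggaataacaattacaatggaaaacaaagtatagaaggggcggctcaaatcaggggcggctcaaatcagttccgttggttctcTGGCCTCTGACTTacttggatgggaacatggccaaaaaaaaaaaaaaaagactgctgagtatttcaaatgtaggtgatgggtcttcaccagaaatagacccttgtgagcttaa
Fabp1 (chr6:71199629-71199928, plus strand): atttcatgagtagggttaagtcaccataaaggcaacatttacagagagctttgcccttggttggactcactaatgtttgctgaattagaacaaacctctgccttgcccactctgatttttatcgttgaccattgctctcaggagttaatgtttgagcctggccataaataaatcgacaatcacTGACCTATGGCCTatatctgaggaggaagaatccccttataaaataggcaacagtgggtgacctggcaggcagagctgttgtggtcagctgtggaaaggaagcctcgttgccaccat
Fabp2 (chr3:122894822-122895121, plus strand): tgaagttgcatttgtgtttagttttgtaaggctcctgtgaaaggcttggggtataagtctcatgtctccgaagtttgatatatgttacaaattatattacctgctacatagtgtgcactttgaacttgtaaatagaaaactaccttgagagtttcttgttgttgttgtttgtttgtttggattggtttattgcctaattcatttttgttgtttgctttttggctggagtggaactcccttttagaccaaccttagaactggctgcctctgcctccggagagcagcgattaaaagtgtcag
In Fabp1 the match began 67 bases before the start, lay on the reverse strand and had 1 mismatch. In Cd36 the match began 63 bases before the start, lay on the reverse strand and had 2 mismatches. The Fabp2 window held no match, and neither did the windows of Slc27a1, Slc27a2, Slc27a4 and Dbi, which complete the 7 of 10 members matched in the table, with 10 windows among them. Of 32851 promoter windows of the same length, 3.86% held a match with at most 2 mismatches and 0.554% one with at most 1. The single repeat unit AGGTCA, which the direct repeat contains, occurred exactly on either strand in 16.3% of all windows, and in those of Cd36, Slc27a2 and Fabp1. A match describes the letters and does not show that a factor binds there.

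**Figure D1:**
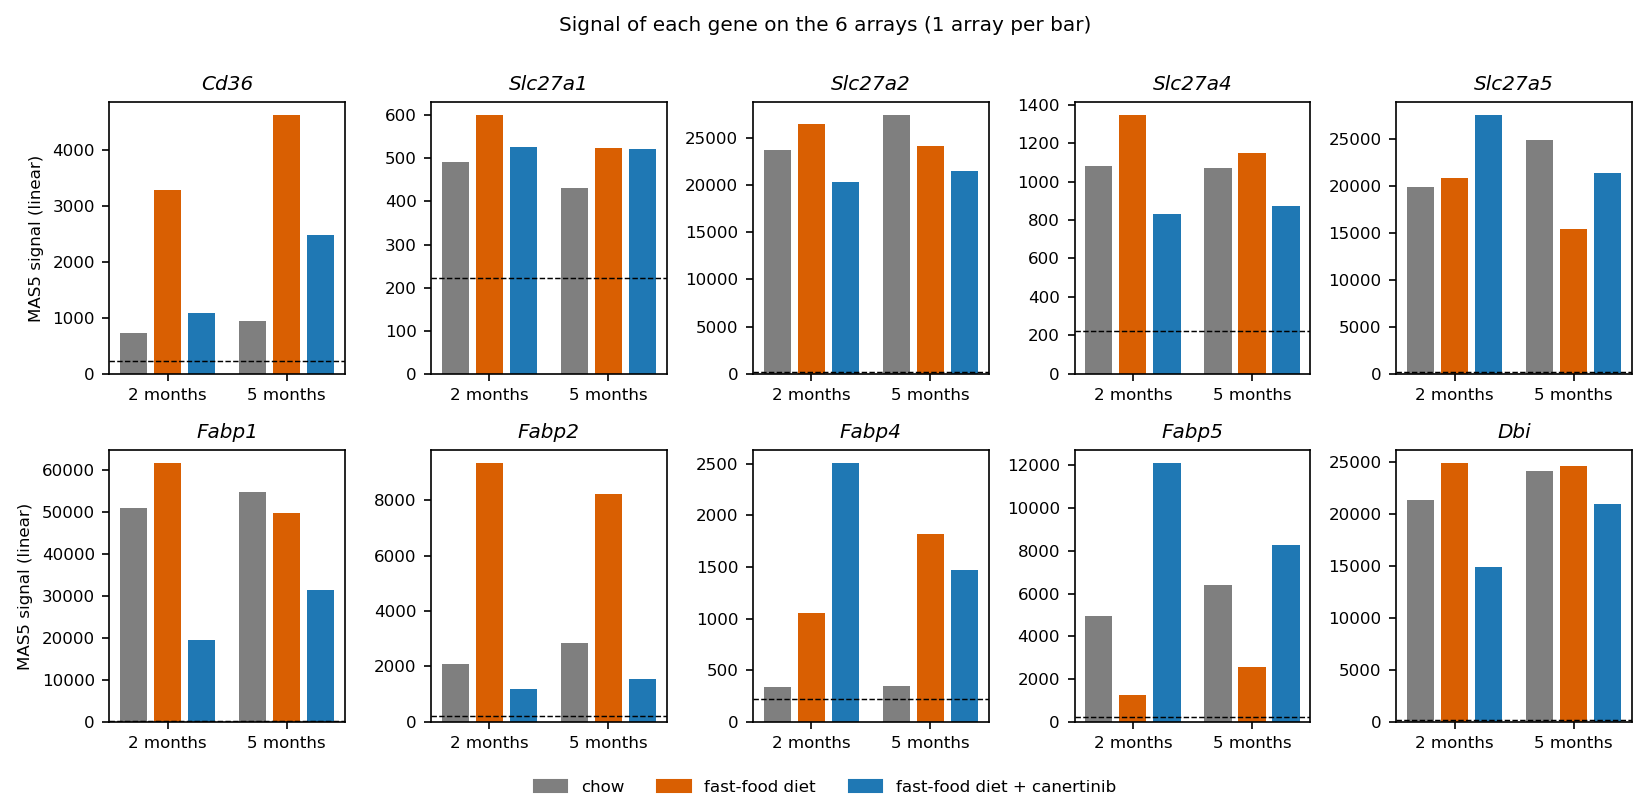
Signals of the 10 genes on the 6 arrays, 1 panel a gene. Each bar is 1 array of pooled RNA, on a linear axis, and its colour gives the treatment. Cd36 and Fabp2 were highest on both fast-food arrays and Fabp5 was lowest on them.

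With the fast-food diet, Cd36, Fabp2 and Fabp4 had signals at least 2-fold above chow and Fabp5 had a signal at least 2-fold below chow, in both studies. The other 6 genes, among them the main transport proteins of the hepatocyte and Fabp1, lay within 2-fold of chow in both. Thus 3 of 10 members were higher and 1 was lower at 2 months, when 1.98% of all measured genes passed 2-fold upward and 1.55% downward. At 5 months it was again 3 higher and 1 lower, with 2.72% of all genes higher and 1.83% lower. The median difference of the members was 0.28 at 2 months and 0.06 at 5 months, beside medians of 0.00 over all genes. Between the chow arrays 0 of 10 members were 2-fold apart in either direction, and 1.28% of all genes were higher and 1.32% lower at 5 months.

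With canertinib added to the diet, Fabp2 was lower and Fabp5 higher by more than 2-fold in both studies. Cd36 and Fabp1 were more than 2-fold lower, and Fabp4 more than 2-fold higher, at 2 months. That made 2 members higher and 3 lower at 2 months, when 3.55% of all genes were higher and 3.26% lower. At 5 months 1 member was higher and 1 lower, and 2.19% of all genes were higher and 2.73% lower. The members' median was -0.54 at 2 months and -0.27 at 5 months, with 0.00 over all genes in each.

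Against chow, the livers given diet and drug had 2 members higher (Fabp4 and Fabp5) and 1 lower (Fabp1) at 2 months, beside 3.8% of all genes higher and 2.74% lower. At 5 months 2 members were higher (Cd36 and Fabp4) and 0 were lower, beside 2.82% of all genes higher and 2.72% lower. The 3 comparisons of a study share their arrays in pairs, so the values below are set side by side and not treated as separate evidence.

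**Figure D2:**
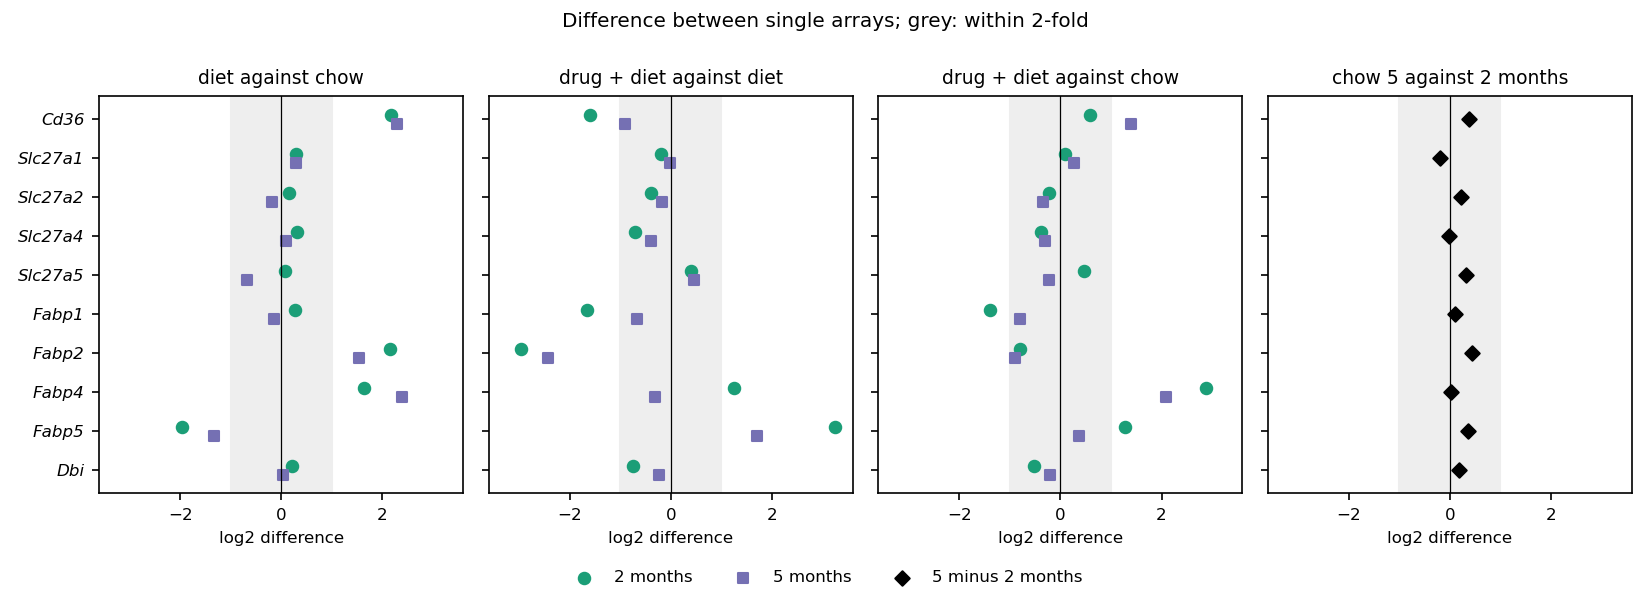
Log2 difference of each gene between 2 single arrays, with circles for the 2-month study, squares for the 5-month study and diamonds for the chow pair; the grey band covers differences under 2-fold. Fabp2 and Fabp5 lay on opposite sides of the band with the diet and had changed sides when the drug was added, and every gene of the chow pair lay inside the band.

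A test over all 6 arrays is possible if it takes the studies as repeats. A limma fit with terms for treatment and study had 2 residual degrees of freedom, and its p-values were adjusted by Benjamini and Hochberg over all 13989 measured genes. Its p-values measure the spread between these arrays of pooled RNA, not between animals, and an effect that differs between the studies widens its error. At an adjusted p under 0.05, limma called 0.0286% of all genes for diet against chow, 0.715% for drug against diet and 0.765% for drug against chow. Of the members it called 0 for the diet, 1 for the drug against the diet, which was Fabp2, and 0 for the drug against chow. At an unadjusted p under 0.05 it called 4 members and 1381 genes for the diet, 5 members and 2067 genes for the drug against the diet, and 4 members and 2183 genes for the drug against chow.

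Cd36, the surface receptor that aids fatty acid entry, was higher with the diet and nearer to chow with the drug. Its signal was 726 with chow, 3279 with the diet and 1084 with diet and drug in the 2-month study. In the 5-month study it was 947, 4626 and 2482 in the same order. Both fast-food arrays lay above both canertinib arrays, which lay above both chow arrays, and no groups overlapped. Here and below such an order is only a description, because the share of all genes ordered in this way was not counted. The difference between diet and chow was 2.18 log2 (4.52-fold) at 2 months and 2.29 log2 (4.88-fold) at 5 months. With the drug Cd36 was 1.60 log2 (3.03-fold) below the diet array at 2 months and 0.90 log2 (1.86-fold) below it at 5 months. It was still 1.39 log2 (2.62-fold) above chow at 5 months, against 0.58 at 2 months. Over both studies limma gave 2.23 (SE 0.23, adjusted p = 0.0877) for the diet and -1.25 (SE 0.23, adjusted p = 0.0975) for the drug against the diet, and neither passed. All 3 probe sets of Cd36 pointed the same way in these comparisons, but their size ranged from 0.96 to 2.29 for the diet at 5 months and from -0.90 to -0.28 for the drug at 5 months.

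The transport proteins are enzymes as well as carriers, since they activate fatty acids to acyl-CoA. Slc27a2 (FATP2), a transporter and very long-chain acyl-CoA synthetase of liver and kidney, had signals of 23706, 26504 and 20316 with chow, diet, and diet and drug at 2 months. At 5 months they were 27413, 24138 and 21472. Both canertinib arrays were below all other arrays, by 0.38 and 0.17 log2 against the diet, while chow and diet overlapped (0.16 and -0.18 for the diet, with -0.01 at 2 months after quantile normalization). The chow arrays themselves were 0.21 apart. Limma gave -0.28 (SE 0.21, adjusted p = 0.602) for the drug against the diet.

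Slc27a5 (FATP5), which is found in liver and also joins bile acids to coenzyme A, read 19864, 20799 and 27531 at 2 months and 24856, 15437 and 21355 at 5 months. Canertinib arrays were above their fast-food arrays in both studies, by 0.40 and 0.47 log2. The diet array was close to chow at 2 months (0.07, but -0.15 after quantile and -0.07 after loess normalization) and below it at 5 months (-0.69), so the drug array ended above chow at 2 months (0.47) and below it at 5 months (-0.22). It was the only transport protein with a higher signal on the drug array than on the diet array in both studies, and limma did not call it (0.44, SE 0.26, adjusted p = 0.510).

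Slc27a4 (FATP4), a widely expressed acyl-CoA synthetase of the endoplasmic reticulum, read 1079, 1345 and 829 at 2 months and 1070.5, 1147 and 870.3 at 5 months. The canertinib arrays were the lowest in each study and did not overlap with the chow or the fast-food arrays. They were 0.70 and 0.40 log2 below the diet arrays and 0.38 and 0.30 below chow, against a difference of 0.01 between the chow arrays. Limma gave -0.55 (SE 0.17, adjusted p = 0.238) for the drug against the diet.

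Slc27a1 (FATP1), the form of muscle and adipose tissue, read 490.4, 600.3 and 526 at 2 months and 431, 524 and 522 at 5 months, a narrow range. Its diet difference was 0.29 and 0.28 log2 with this probe set, but -0.33 and -0.27 with the other probe set of the gene, whose mean signal was close. The sign of the diet difference of Slc27a1 therefore depends on the probe set, and it was not called by limma (0.29, SE 0.23, adjusted p = 0.739).

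Fabp1, the main cytosolic carrier of fatty acids in hepatocytes, had a signal of 50885 with chow, 61507 with the diet and 19408 with diet and drug at 2 months. At 5 months the signals were 54581, 49633 and 31407. With this representative probe set both canertinib arrays were below all 4 others, and chow and diet overlapped. The drug difference against the diet was -1.66 log2 (3.17-fold lower) at 2 months and -0.66 (1.58-fold lower) at 5 months, and against chow it was -1.39 and -0.80. Limma gave -1.16 (SE 0.34, adjusted p = 0.216) against the diet and -1.09 (SE 0.34, adjusted p = 0.219) against chow, which did not pass. After quantile normalization the difference at 5 months was -1.12, past 2-fold. In the second probe set the 5-month canertinib array, at 38352, was above 2-month chow (33061.5) and the 2-month diet (20723.8). That probe set gave -1.76 at 2 months and -0.16 at 5 months for the drug against the diet. For the diet against chow it gave -0.67 and -0.37 where the first gave 0.27 and -0.14, so the direction at 2 months depends on the probe set. At 5 months it depends on the scaling, with 0.105 after quantile and 0.05 after loess normalization.

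Fabp2, a fatty acid carrier best known from enterocytes, was the only member that passed the test. Its signal was 2102 with chow, 9327 with the diet and 1201 with diet and drug at 2 months, and 2849, 8209.7 and 1530.4 at 5 months. The fast-food arrays were far above all others and the canertinib arrays were below both chow arrays, so that the 3 treatments did not overlap. The diet difference was 2.15 log2 (4.44-fold) at 2 months and 1.53 (2.88-fold) at 5 months, for which limma gave 1.84 (SE 0.185, adjusted p = 0.0877). With the drug Fabp2 fell by 2.96 log2 (7.76-fold) at 2 months and by 2.42 log2 (5.36-fold) at 5 months against the diet. Limma put this fall at -2.69 (SE 0.185, 95% interval -3.15 to -2.23, adjusted p = 0.0127). Against chow the canertinib arrays were 0.81 and 0.90 log2 lower (limma -0.85, SE 0.185, adjusted p = 0.128).

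With any 1 array left out, the estimate for the fall of Fabp2 with the drug was -2.98 to -2.40. These fits had 1 residual degree of freedom, so the loss of the call in them is not particular to Fabp2. In the fit to all 6 arrays the limma call was lost when genes were averaged over their probe sets (adjusted p = 0.0599), although Fabp2 has a single probe set. Of 10 enterocyte markers 6 were measured, and 0 of these were 2-fold different in the diet and drug comparisons. Cdx2, Lct and Krt20 among them were at the floor on most arrays, which limits how far they could differ. The summed signal of the 6 markers was 2291 to 2808 on the 6 arrays. The defining marker Sis had no probe set with 1 gene symbol. Vil1, a structural protein of the enterocyte brush border, was at the floor on all 6 arrays, with signals of 12.6 to 23.2. Alpi and Anpep were above it on all 6, at 463.7 to 912.9 and 920.6 to 1368.2. At 2 and 5 months Alpi gave 0.98 and 0.21 log2 for the diet, and -0.49 and -0.03 for the drug against the diet. Anpep gave 0.12 and -0.43 for the diet, and -0.37 and 0.27 for the drug against the diet.

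**Figure D3:**
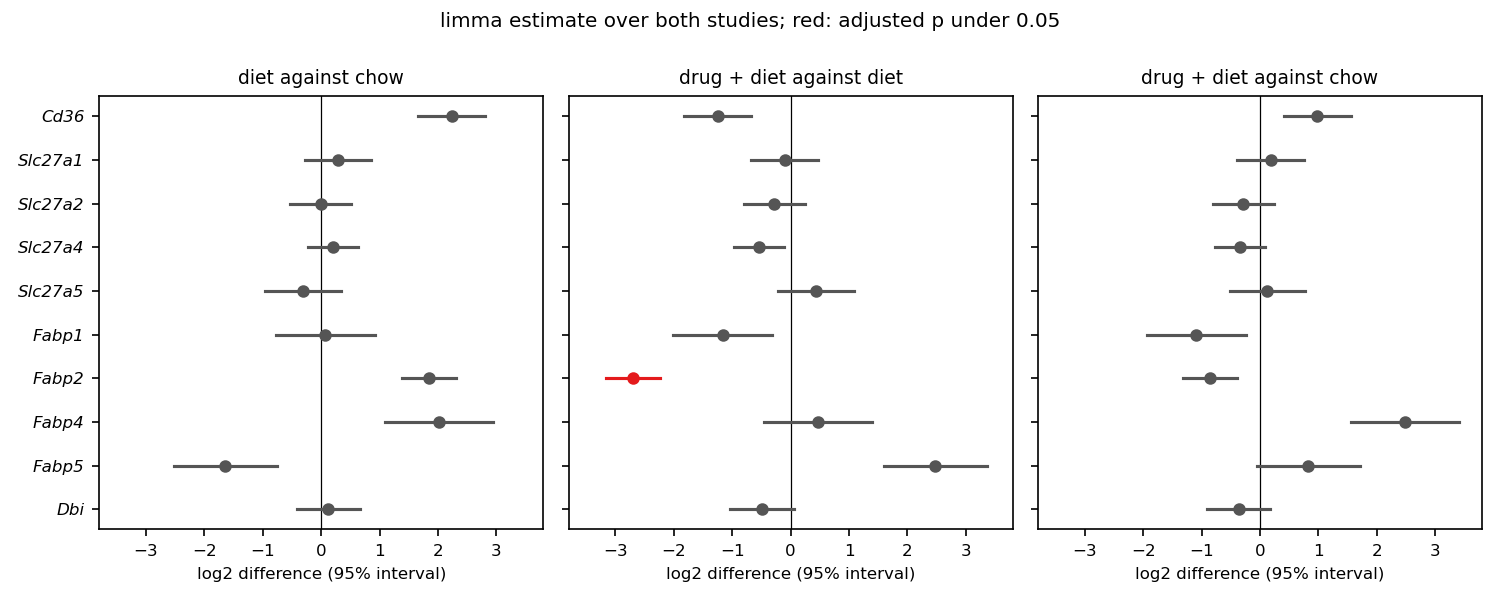
Limma estimates over both studies for the 10 genes in 3 contrasts, as log2 differences with 95% intervals. The Fabp2 estimate of -2.69 for drug against diet is the only one with an adjusted p under 0.05.

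Fabp5, the epidermal type carrier, had the mirror pattern of Fabp2. Its signal was 4967 with chow, 1275 with the diet and 12096 with diet and drug at 2 months, and 6399, 2549.8 and 8285 at 5 months. Both fast-food arrays were the lowest and both canertinib arrays the highest, and the 3 treatments did not overlap. With the diet Fabp5 was 1.96 log2 (3.90-fold) below chow at 2 months and 1.33 (2.51-fold) below it at 5 months. With the drug it was 3.25 log2 (9.49-fold) above the diet array at 2 months and 1.70 (3.25-fold) at 5 months, and 1.28 and 0.37 above chow. Limma gave -1.64 (SE 0.35, adjusted p = 0.248) for the diet and 2.47 (SE 0.35, adjusted p = 0.0630) for the drug against the diet. A second probe set showed the same directions, with -1.34 and -0.70 for the diet and 3.00 and 1.03 for the drug against the diet. RefSeq lists pseudogenes of Fabp5 and of Dbi, and probes that match such copies could add to these signals.

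Fabp4, the carrier of adipocytes and macrophages, was higher with the diet and stayed above chow with the drug. Its signal was 342 with chow, 1055 with the diet and 2503 with diet and drug at 2 months, and 346, 1814 and 1468 at 5 months. Both chow arrays were far below the other 4, among which diet and drug overlapped. The diet difference was 1.63 log2 (3.09-fold) at 2 months and 2.39 (5.24-fold) at 5 months, with 2.01 (SE 0.37, adjusted p = 0.202) from limma. The drug array was 1.25 log2 above the diet array at 2 months and 0.31 below it at 5 months, and limma gave 0.47 (SE 0.37, adjusted p = 0.615). Against chow the canertinib arrays were 2.87 log2 (7.33-fold) and 2.08 log2 (4.24-fold) higher, with 2.48 (SE 0.37, adjusted p = 0.0729) from limma.

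The 4 probe sets of Fabp4 disagreed in size, from 0.00 to 1.63 log2 for the diet at 2 months and from 0.14 to 2.39 at 5 months. For the drug against the diet they ranged from 0.02 to 2.18 at 2 months and from -0.39 to 0.08 at 5 months. Without probe sets whose names end in _s_at, _x_at or _a_at, the diet difference was 0.26 and 0.14 log2. The set with the highest remaining signal read 440.7, 528 and 534 at 2 months and 399.5, 439 and 414 at 5 months.

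**Figure D4:**
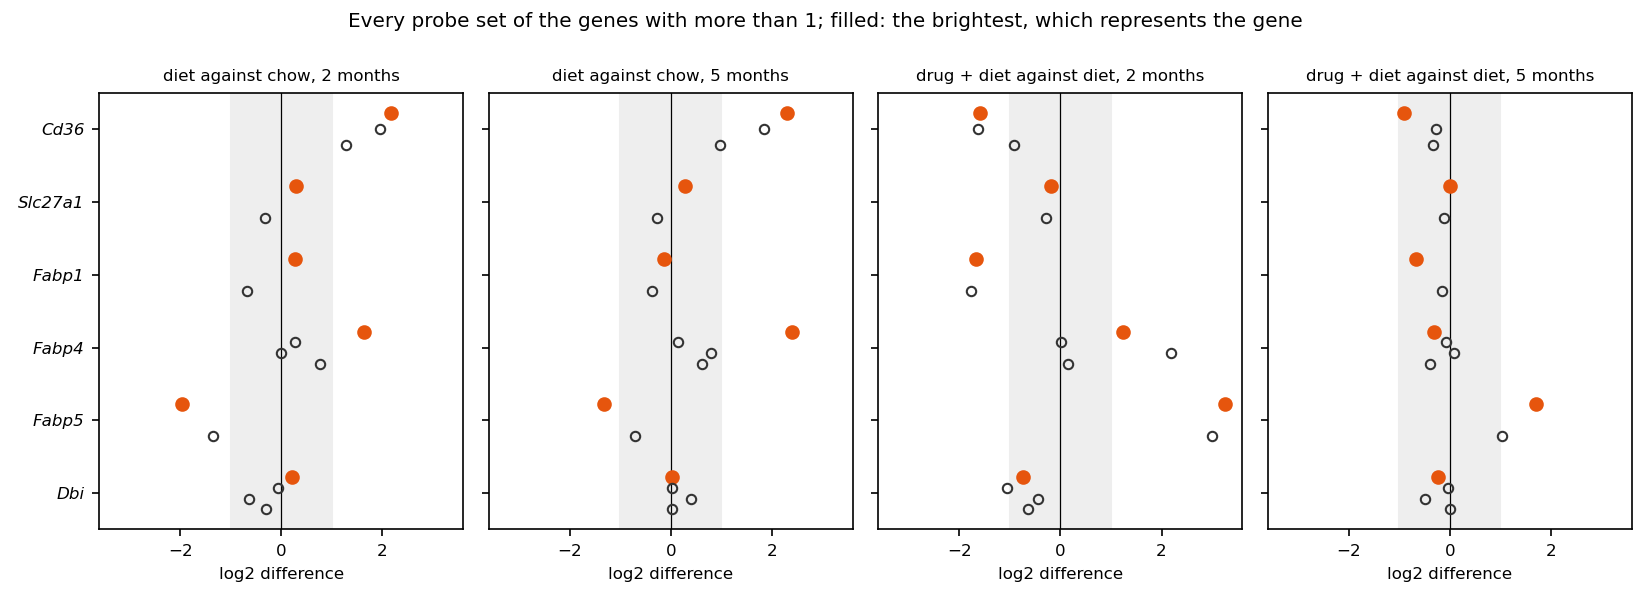
Log2 differences for every probe set of the 6 genes that have more than 1, with the representative probe set marked. Fabp4 has 4 probe sets that range from 0.00 to 1.63 for the diet at 2 months, and the 3 of Cd36 point the same way in the diet and drug comparisons.

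Summed signals of markers of macrophages and of Kupffer cells, the resident macrophages of the liver, were higher than with chow on the arrays with high Fabp4. The summed signal of 10 measured of 12 macrophage markers was 11808 with chow, 22965 with the diet and 25214 with diet and drug at 2 months, and 11357, 32472 and 33958 at 5 months. For all 8 of 8 Kupffer markers the sum was 7909.7, 20917 and 28640.0 at 2 months and 8098.5, 28750.4 and 31177 at 5 months. Their defining genes were present on all 6 arrays, at 1157 to 2891 for Adgre1 and at 1223 to 2748 for Clec4f. Itgam and Trem2 were at the floor on all 6. For the drug against the diet at 2 months, where Fabp4 was higher, Adgre1 gave -0.58 log2 and Clec4f 0.01. The median there was 0.02 over the measured macrophage markers and 0.53 over the Kupffer markers. At least 2-fold higher were 1 macrophage marker, Cd9 (1.07), and 2 Kupffer markers, Vsig4 (1.06) and Marco (2.67). In both lists 0 markers were 2-fold lower, and 3.55% of all genes were 2-fold higher. With the diet 4 macrophage markers were at least 2-fold higher at 2 months and 8 at 5 months, and 4 Kupffer markers in each study. Limma called C1qa, a complement subunit made by macrophages, for the diet (2.33, adjusted p = 0.0385) and Csf1r, the receptor of macrophage colony-stimulating factor, for the drug against chow (1.28, adjusted p = 0.0426). Also called as higher for the drug against chow were 4 of 8 Kupffer markers, Vsig4 (1.62, adjusted p = 0.0187), Cd5l (2.23, adjusted p = 0.0136), C1qa (2.37, adjusted p = 0.0113) and C1qc (1.94, adjusted p = 0.0407), by limma. The part of macrophage RNA in the Fabp4, Fabp5 and Cd36 signals was not tested, and in whole liver the number of cells of a type and the RNA per cell cannot be told apart.

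Of the other cell types that express Fabp4, adipocytes gave no defining signal. Adipoq, the adipocyte hormone adiponectin, read 13.8 to 25.4 and was at the floor on all 6 arrays, and 4 of 8 adipocyte markers were measured, with summed signals of 11356 to 19169.8. Most of that sum was Pck1, a gluconeogenic enzyme that hepatocytes also make, at 9356 to 17998. The adipocyte markers Retn and Lipe were above the floor on all 6 arrays, at 668 to 928 and at 239.9 to 509.3. Cidea, a lipid droplet protein that fatty hepatocytes are known to express too, was the 1 adipocyte marker at least 2-fold higher with the diet in each study and at least 2-fold lower with the drug in each. Limma called it for the drug against the diet (-2.82, adjusted p = 0.0366), an estimate bounded by the floor on 3 arrays. The sum of 10 measured of 11 endothelial markers was 8379.7, 10525 and 12051 at 2 months and 8000.6, 10762 and 9467 at 5 months. The defining gene Cdh5 read 796 to 1510.0. For the drug against the diet at 2 months, 3 endothelial markers (Stab2, Lyve1 and Vwf) were at least 2-fold higher and 0 lower, with a list median of -0.06. Vwf exceeded the floor on that canertinib array only.

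Fabp4 and Fabp5 lie close to each other on chromosome 3. Between them RefSeq lists 2 further carriers, Pmp2 of peripheral myelin and Fabp9 of the testis, along with the noncoding genes Gm33365 and Gm9833. Pmp2 exceeded the floor on 1 array, at 228.8 with diet and drug at 2 months, and Fabp9 on 0 arrays. Fabp4 and Fabp5, whose diet differences had opposite signs, exceeded the floor on all 6 arrays.

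Dbi, which binds acyl-CoA esters in every cell, read 21395, 24899.8 and 14878 at 2 months and 24143, 24626 and 20982 at 5 months. With the representative probe set both canertinib arrays were below all 4 others. They were 0.74 and 0.23 log2 below the diet and 0.52 and 0.20 below chow. In each other probe set of Dbi the 5-month canertinib array was above the 2-month chow and diet arrays. Limma gave -0.49 (SE 0.22, adjusted p = 0.387) for the drug against the diet. The 4 probe sets ranged from -1.06 to -0.44 for the drug against the diet at 2 months and from -0.49 to 0.005 at 5 months. For the drug against chow at 5 months they ranged from -0.20 to 0.02. For the diet at 2 months they ranged from -0.64 to 0.22, so its direction depends on the probe set.

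**Figure D5:**
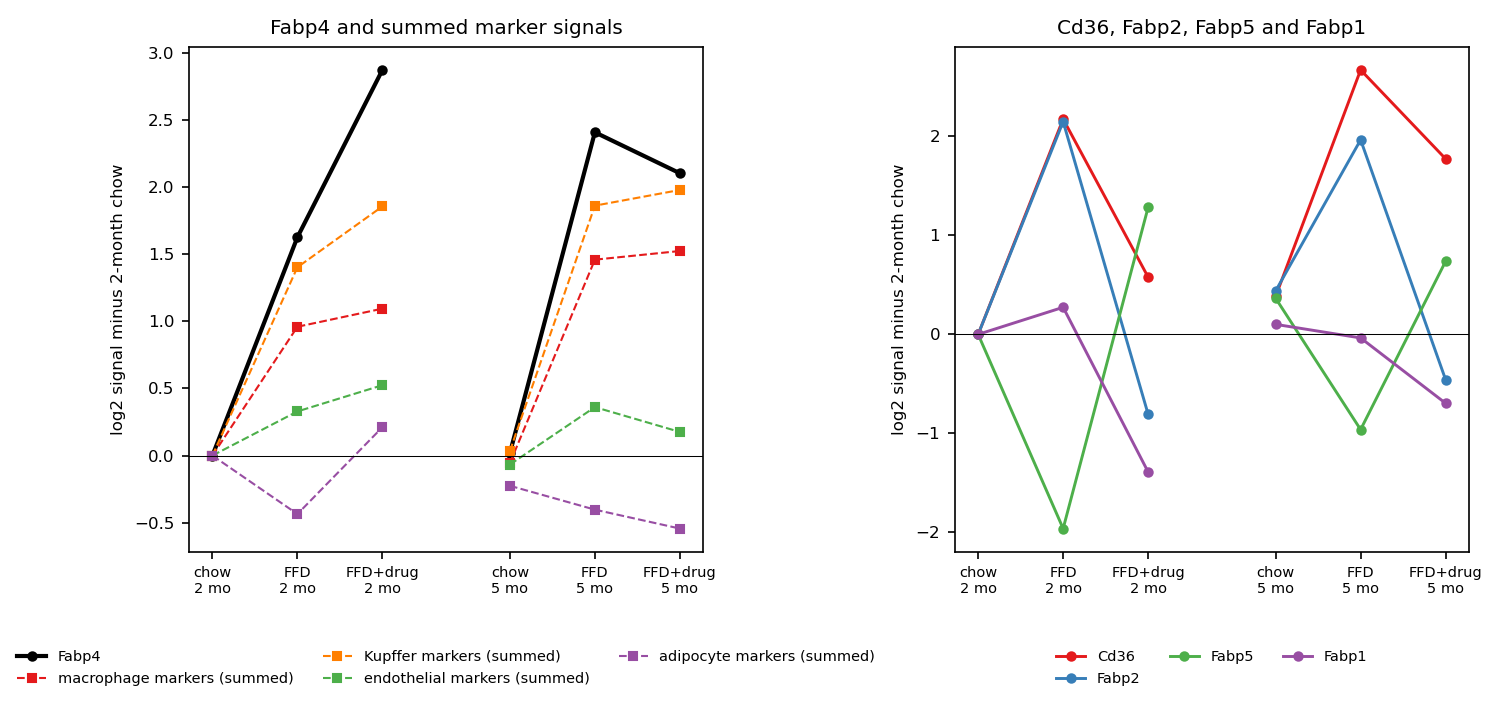
Log2 signal minus that of 2-month chow on the 6 arrays, with lines joining the arrays of one study: left, Fabp4 with the summed signals of 4 marker lists, right, Cd36, Fabp2, Fabp5 and Fabp1. The fast-food diet is written FFD and canertinib is written drug. Kupffer and macrophage sums were above chow on the same 4 arrays as Fabp4, and Fabp5 and Fabp2 ran in opposite directions.

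The genes most alike in pattern were found among 2419 genes above the floor on all arrays and with a range of at least 1 log2, by Pearson's r of the log2 signals over the 6 arrays, which share treatment and study. For Cd36 they were Ly6d (r = 0.9886), Wfdc2 (0.9803) and Tceal8 (0.9765). For Fabp2 they were Mgll (0.9872), which encodes monoacylglycerol lipase, Vcl (0.9857) and Gpd1 (0.9837), an enzyme of glycerol 3-phosphate metabolism. For Fabp1 they were Fitm1 (0.9953), a lipid droplet protein, Inmt (0.993) and 1700066M21Rik (0.9895). For Fabp4 they were C1qc (0.9913) and Fcgr3 (0.9905), both macrophage genes, and Abhd2 (0.985). For Fabp5 they were 4930563E18Rik (0.9777), Gne (0.9746) and Pdia5 (0.9745). Among the members, Fabp2 and Fabp5 had r = -0.952, Fabp1 and Fabp2 0.754, Cd36 and Fabp2 0.689, and Fabp4 and Fabp5 0.075. With 6 arrays these r values are a description and carry no test.

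Of 15 measured of 20 other transporters and binding proteins limma called 0 in each contrast, of 11 of 15 acyl-CoA synthetases 0, and of 9 of 11 genes of mitochondrial and peroxisomal entry 0. In the first list the median differences were 0.18 and -0.11 with the diet and 0.025 and -0.10 with the drug against the diet. Mfsd2a, a carrier of lysophospholipids, was the 1 gene of that list at least 2-fold higher with the diet in each study, at 1340.2, 3843 and 4099 at 2 months and 871, 3646 and 2134 at 5 months. Among the synthetases 3 were at least 2-fold lower with the drug than with the diet at 2 months and 0 at 5 months. They were Acsm3 (-1.08 at 2 months and -0.78 at 5 months), Acsm5 (-1.17 and -0.61) and Acsf2 (-1.835 and -0.78). Acsf2 was at the floor on the canertinib array at 2 months. Acsl3, Acsl4 and Acsl5 lay within 2-fold there, at 0.49, -0.16 and -0.78. Acsl6 was the 1 synthetase at least 2-fold higher with the drug than with the diet at 5 months (1.67, and 0.87 at 2 months). In the entry list Crot, a peroxisomal carnitine acyltransferase, was 1.84 log2 below the diet array at 2 months and 0.66 below it at 5 months. Abcd2 and Slc22a5 of that list also passed 2-fold for the drug against the diet. Abcd2 gave -1.01 at 2 months and 1.31 at 5 months, and Slc22a5 gave 0.10 and -1.89.

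Of 14 measured of 18 nuclear receptors and partners, limma called 1 for the drug against the diet and 0 for the others. That gene was Ppargc1b, a coactivator of nuclear receptors, which rose by 2.35 log2 (adjusted p = 0.0325). Its signals were 1468, 233 and 1317 at 2 months and 1989, 226 and 1046 at 5 months, so that the fast-food arrays were the lowest, as for Fabp5. Ppara, which encodes PPAR alpha, read 3948, 4205 and 2770.1 at 2 months and 4694, 4859 and 3488 at 5 months, and the drug arrays were below all others. Pparg, encoding PPAR gamma, read 32.5, 362 and 45.0 at 2 months and 257, 475 and 203 at 5 months, and was at the floor on 3 of the arrays, including both canertinib arrays. Hnf4a, a hepatocyte transcription factor, was 0.67 and 1.03 log2 higher with the drug than with the diet.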

How the data were processed

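Pooled liver RNA (6 ug total RNA) was labelled as biotinylated cRNA, per the labels' protocols. The submitters' processing notes name MAS5 (version not given in the sources used here). Intensity values were deposited on a linear scale, and a mean trimmed by 2% at each end gave 500 on each array. Of 45101 probe sets, 34958 have 1 gene symbol. Values under 221.4, the 50th percentile over all arrays, were set to it (the floor) before taking log2. Differences of single arrays have no test. The limma fit used treatment and study, with a variance trend on mean signal. Named were the members, genes of the lists, and for members with a range of at least 1 log2 the 3 most alike genes. The members and lists were chosen with earlier results of these data known.

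The fits were repeated after quantile or loess normalization or median centring, with the floor moved to the 40th or the 60th percentile or dropped, on genes above the floor throughout, with other probe set choices, with 1.5-fold and 3-fold thresholds, with other variance priors, without the study term, and with each array left out in turn. The fit was also run on simulated data with equal noise for every gene. Changed genes there differed from chow alike with the diet and with diet and drug. Recovery of a difference between drug and diet was therefore not tested. Tools were Python 3.11.15, NumPy 2.4.6, pandas 2.3.3, matplotlib 3.10.9, R 4.3.3 and limma 3.58.1. Promoter windows came from RefSeq on GRCm38.p6.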

Additional observations from a re-analysis of the deposited data

Results flagged for a closer look

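Some genes differed in direction between the 2-month and the 5-month study, which was not tested because each group was 1 array. Fabp4 was 1.25 log2 above the diet array with the drug at 2 months and 0.31 below it (-0.31) at 5 months. For the diet against chow, Slc27a5 gave 0.07 at 2 months and -0.69 at 5 months, Slc27a2 gave 0.16 and -0.18, and Fabp1 gave 0.27 and -0.14. For the drug with diet against chow, Slc27a5 gave 0.47 at 2 months and -0.22 at 5 months. The diet values of Slc27a5 and Slc27a2 at 2 months turned negative after quantile normalization (-0.15 and -0.01), and that of Fabp1 at 5 months turned positive (0.105), so their opposite directions were not seen there. In the chow pair these genes differed by 0.02 (Fabp4), 0.32 (Slc27a5), 0.21 (Slc27a2) and 0.10 (Fabp1).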

How the results depend on the processing

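The study term of the limma fit pairs the arrays by study, and the fit without it is the unpaired alternative. Of 630 differences of members between single arrays under alternatives, 610 moved by less than 0.40 log2, the standard deviation of the chow pair, and 20 by more. The sign turned in 21 of the 630, of which 14 lay outside the chow pair and 0 in a difference of at least 2-fold. With means over probe sets the diet difference at 2 months turned to -0.20 for Fabp1, -0.196 for Dbi and -0.02 for Slc27a1, and the drug difference against chow for Slc27a1 to -0.25 and -0.05 at 2 and 5 months. With quantile normalization the diet difference turned at 2 months to -0.15 for Slc27a5, -0.01 for Slc27a2 and -0.035 for Dbi, and at 5 months to 0.105 for Fabp1. Loess turned Slc27a5 at 2 months (-0.07) and Fabp1 at 5 months (0.05), and the difference of -0.01 for Slc27a1 with the drug against the diet at 5 months turned under quantile, loess and median scaling. For the 2-fold counts of members, with probe sets ending in _s_at, _x_at or _a_at left out, the diet at 5 months had 0 lower, the drug against the diet 1 higher at 2 months, and the drug against chow 1 higher at 2 months and 1 at 5 months. With means over probe sets, the drug against the diet had 1 higher at 2 months and the drug against chow 1 higher at 5 months. In both settings Fabp4 fell under 2-fold for the diet in each study, which left Cd36 and Fabp2 as the members higher. The diet differences of Fabp4 at 2 and 5 months were 0.26 and 0.14 with those probe sets left out and 0.665 and 0.98 with means. With quantile normalization, the drug against the diet had 2 lower and the drug against chow 1 lower at 5 months. At 1.5-fold, 2 were lower with the diet at 5 months, 5 and 3 with the drug against the diet at 2 and 5 months, and 2 and 2 with the drug against chow, where 7.57%, 10.6%, 9.25%, 10.1% and 10% of all measured genes were lower in the same order. At 3-fold, the diet at 5 months had 0 lower, the drug against the diet 1 higher at 2 months, and the drug against chow 1 higher and 0 lower at 2 months and 1 higher at 5 months, beside 0.386%, 0.915%, 1.05%, 0.751% and 0.779% of all genes. Fabp2, at 2.88-fold, was also under 3-fold for the diet at 5 months. With the probe sets left out, with means and with quantile normalization, 1.15% to 3.86% of all genes passed 2-fold in the comparisons and directions named for them.

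Limma called, for the diet, 1 gene with quantile normalization, 0 with loess, 2 with median centring, 0 with the floor at the 40th percentile, 22 with no floor, 134 among genes above the floor on all arrays (all-array genes), 0 with means over probe sets, 0 without the trend, 22 with a robust prior and 1 without the study term, against 4. For the drug against the diet it called 152, 384, 7, 26 and 179 with no floor, all-array genes, means, no trend and robust prior, against 100, and for the drug against chow 402, 25, 43 and 175 with all-array genes, means, no trend and robust prior, against 107. Of the members it called, for the diet, 2 with no floor, 4 with all-array genes and 2 with the robust prior; for the drug against the diet, 2 with median centring, 2 with no floor, 3 with all-array genes, 0 with means and 2 with the robust prior; and for the drug against chow 1, 1, 3 and 1 with median centring, no floor, all-array genes and robust prior. Median centring called 86 genes for the drug against the diet and 103 for the drug against chow, and no floor called 146 for the latter. The fits tested 13969 genes with median centring, 18194 with no floor, 9874 all-array genes, 14026 with means and 13989 with the robust prior. With all-array genes the diet calls were Cd36 (adjusted p = 0.0022), Fabp2 (0.00297), Fabp4 (0.0213) and Fabp5 (0.0376). The cause was not tested. With any 1 array left out limma called 0 genes and 0 members in each contrast, and at an unadjusted p under 0.05 it called 902 to 1212 genes for the diet, 1259 to 1700 for the drug against the diet and 1317 to 1895 for the drug against chow. Depth does not apply to arrays; the floor limits dim genes such as Pparg.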

Other observations

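Stellate cell markers, of which 8 of 8 were measured, were at least 2-fold higher with the diet for 2 genes at 2 months and 5 at 5 months, and Col1a1 and Col3a1, collagens of scar tissue, were at least 2-fold lower with the drug than with the diet in each study. Of 9 measured of 10 hepatocyte markers, 0 were 2-fold different in the diet and drug comparisons, with medians of 0.25 and -0.265 for the diet and 0.32 and 0.42 for the drug against the diet at 2 and 5 months. Of 6 cholangiocyte markers 3 were measured, and the defining Krt19 exceeded the floor on 1 array. Of 6 muscle markers 3 were measured, and Ckm, muscle creatine kinase, read 661, 669 and 449 at 2 months and 272, 219.9 and 273 at 5 months.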
